A study of Mus musculus with 18 samples.

Results

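The 10 genes followed here encode immediate early transcription factors and a related early response protein. They are Fos, Fosb, Jun, Junb, Egr1, Egr2, Egr3, Ier2, Atf3 and Nr4a1, measured in 18 RNA-seq libraries of mouse fat and liver. They were named by symbol, and all 10 were found among the 22298 gene identifiers of the count tables. C57BL/6 mice 12 weeks old gave the tissues, which were liver and the white fat of the epididymal (eWAT) and inguinal (iWAT) depots, with 3 libraries a genotype in each. The WT group carries the floxed allele of Bckdha alone (Bckdhaf/f), and the KO group carries it together with the Cre transgene (Bckdhaf/f;RIP-Cre). Bckdha encodes a subunit of the complex that degrades branched-chain keto acids, and RIP-Cre is Cre driven by the rat insulin promoter, known for activity in beta cells of the pancreas and in some neurons. The floxed allele is shared by all libraries, and a group with the Cre transgene alone was not analysed here, so the deletion and the transgene cannot be told apart. The labels give neither the sex of the mice nor whether each library is its own animal. The p-values therefore measure spread between libraries only, which may be technical.

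Depth ran from 16796147 to 28039742 expected counts a library. Levels are given as CPM, counts scaled to a common library size. Liver libraries held 134844 to 172490 CPM (scaled over all 18 libraries) of the albumin gene Alb. Among the eWAT libraries WT2 stood apart. Its 10 epididymis markers summed to 47814 CPM, against 1.35 to 1262 CPM in the other 5 eWAT libraries, and its 11 adipocyte markers summed to 204 CPM, against 9410 to 37394 CPM. In eWAT KO1 and KO3 the epididymal gene Crisp1 reached 1071 and 1238 CPM. Among the iWAT libraries WT2 had 0.935 CPM of the B cell gene Cd79a, against 102 to 332 CPM in the other 5. Bckdha itself was present in every library, from 37.1 to 464 CPM. These tissues are not where RIP-Cre is known to act, so that level does not check the labels.

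Immediate early genes are transcribed within minutes of a signal, before any new protein is made, because the factors that switch them on are already bound or waiting in the cell. Serum response factor with its ternary complex partners acts through CArG boxes, and CREB acts through cyclic AMP response elements (CREs). Fos and Fosb encode partners that pair with Jun and Junb to form AP-1. Egr1, Egr2 and Egr3 encode zinc finger factors, Atf3 a stress-responsive bZIP factor, Nr4a1 an orphan nuclear receptor and Ier2 a small nuclear early response protein. In liver and fat these genes are known to respond to feeding signals, catecholamines, injury and handling of the tissue.

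To show the elements through which such signals are known to act, the 250 bases before the transcription start were taken from RefSeq promoters (GRCm38.p6). Windows of 7 of the 10 genes were used, and those of Egr1, Egr3 and Ier2 are not shown. Fos, Jun and Nr4a1 are printed because they were among the genes with higher liver levels in KO libraries, and Egr2 because its level was set by a single eWAT library. Capitals mark matches on either strand to a CRE core (TGACG), a CRE (TGACGTCA), an AP-1 site (TGANTCA), a variant of it in the Jun promoter (TGACATCA), an EGR site (GCGNGGGCG), a TATA box (TATAAA) or the CArG box. The core lies within the CRE, so each CRE would also count as a core.
Fos at chr12:85473640-85473889, plus strand: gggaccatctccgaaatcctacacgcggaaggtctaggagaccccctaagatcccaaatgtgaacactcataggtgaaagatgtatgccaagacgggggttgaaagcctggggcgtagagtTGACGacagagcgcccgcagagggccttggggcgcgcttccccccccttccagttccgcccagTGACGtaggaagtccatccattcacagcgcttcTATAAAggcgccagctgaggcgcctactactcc
Jun at chr4:95052223-95052472, minus strand: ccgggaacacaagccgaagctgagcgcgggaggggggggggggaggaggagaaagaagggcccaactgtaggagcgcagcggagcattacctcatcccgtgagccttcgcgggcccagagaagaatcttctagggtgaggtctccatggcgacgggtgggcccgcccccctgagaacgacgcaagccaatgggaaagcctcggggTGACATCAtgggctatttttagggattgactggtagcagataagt
Egr2 at chr10:67537619-67537868, plus strand: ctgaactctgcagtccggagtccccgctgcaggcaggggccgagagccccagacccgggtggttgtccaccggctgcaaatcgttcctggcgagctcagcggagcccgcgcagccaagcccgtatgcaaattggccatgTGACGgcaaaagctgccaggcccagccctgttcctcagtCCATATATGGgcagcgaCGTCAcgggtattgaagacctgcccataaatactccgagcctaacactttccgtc
Nr4a1 at chr15:101266596-101266845, plus strand: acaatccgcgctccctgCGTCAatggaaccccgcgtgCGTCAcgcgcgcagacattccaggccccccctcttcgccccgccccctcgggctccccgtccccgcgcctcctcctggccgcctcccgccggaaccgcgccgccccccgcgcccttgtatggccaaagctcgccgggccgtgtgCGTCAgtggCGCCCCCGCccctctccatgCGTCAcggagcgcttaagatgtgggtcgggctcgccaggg

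The Fos window held CRE cores that begin 129 and 66 bases before the start and a TATA box at 33. The Jun window held the variant AP-1 site at 45 bases and no CRE core. The Egr2 window, 1 of 5 for that gene, held a CArG box at 72 bases and CRE cores at 111 and 55. The Nr4a1 window held 4 CRE cores, at 233, 213, 69 and 40 bases, and an EGR site at 60. Among the windows not printed, CRE cores lay at 60 bases in Fosb, 106 in Junb and 7 in Atf3, and Fosb had an EGR site at 50. No window of the 7 genes held a full CRE or the AP-1 letters. Of 32851 RefSeq windows of the same length, 17.8% held a CRE core, 1.55% a CRE, 6.75% an AP-1 site, 2.93% the variant, 4.7% an EGR site, 12.4% a TATA box and 1.47% a CArG box. A match is a description of the letters and not of binding. Letters farther upstream were not searched. A window without a match, such as that of Fos for the CArG box, therefore does not show that the gene lacks it.

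Jun and Junb overlap a neighbour in GENCODE M21 (GRCm38). Jun (chr4:95049034-95052222, minus strand) overlaps the antisense gene Junos, and Junb (chr8:84974484-84978718, minus strand) overlaps the end of Prdx2. Strand use is not stated, so reads of these partners cannot be told apart where they overlap. Prdx2 stayed between 69.8 and 306 CPM over the 18 libraries. Atf3 contains the small gene Gm24748.

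**Figure D1:**
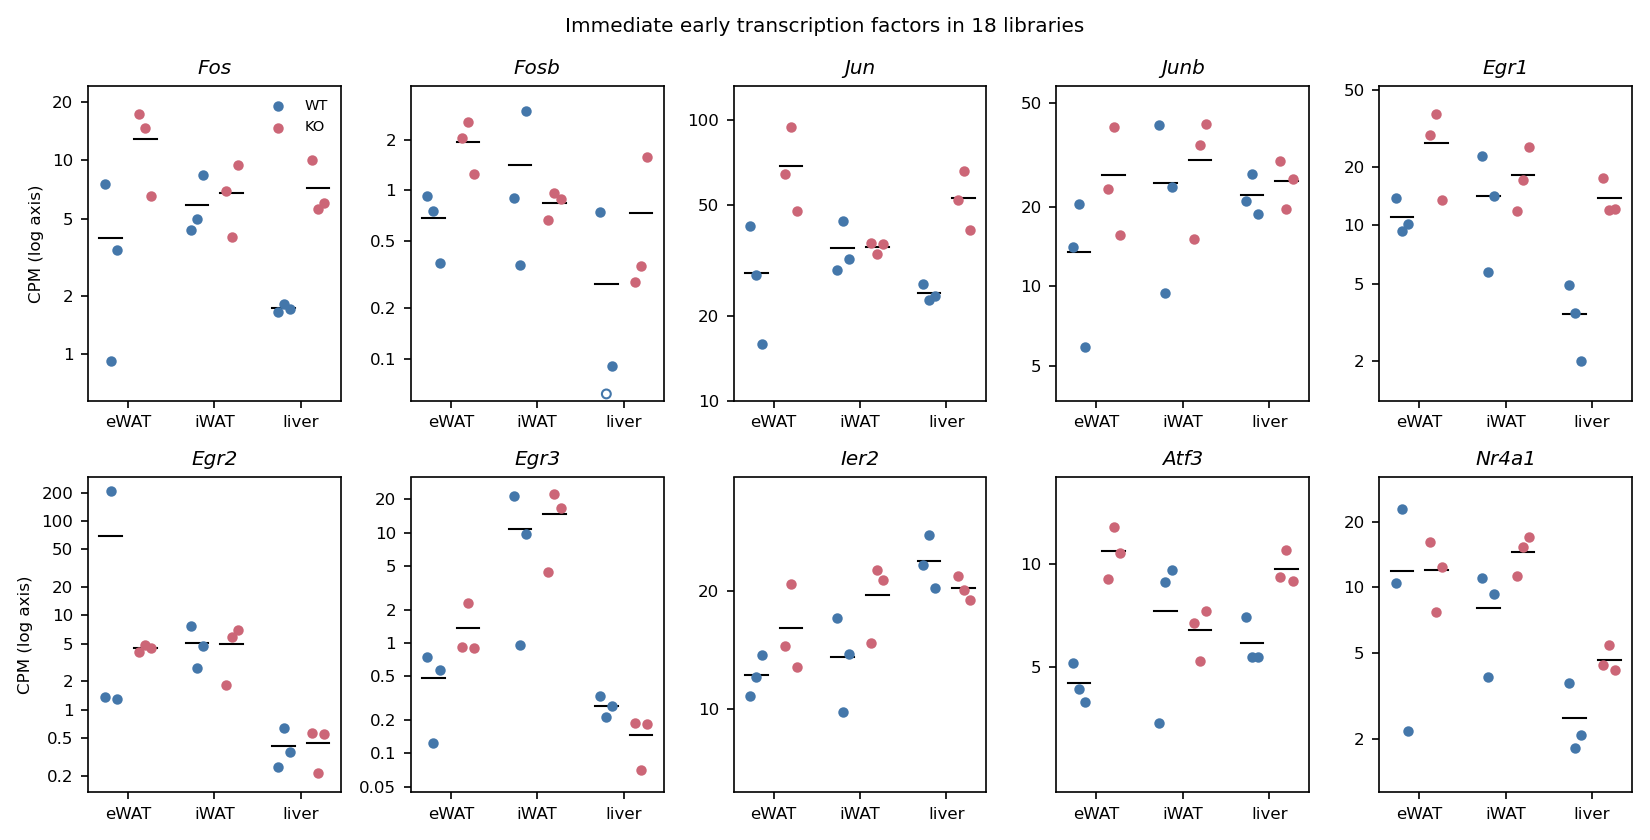
CPM of each gene (log axis, scaled over all 18 libraries) in eWAT, iWAT and liver, with 1 point a library, WT in blue, KO in red and a line at the mean of 3. The open circle in the Fosb panel is a liver WT library at 0 counts. In liver the KO points of Fos, Jun and Egr1 lie above the WT points, Egr2 has a single high eWAT point at 206 CPM, and Egr3 is high in 5 of 6 iWAT libraries.

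In liver, Fos, Egr1, Jun, Atf3 and Nr4a1 had every KO library above every WT library, but no gene of the 10 passed an adjusted p of 0.05 in edgeR's quasi-likelihood test. Over all 11915 genes tested in liver, 6 were called (0.0504%), and 5.98% had every KO library above every WT library. At an unadjusted p under 0.05, 5 of the 7 tested genes were higher in KO, against 2.87% of all genes tested. The other tools differed: DESeq2 called Fos, Jun and Egr1, among 65 genes in all, and limma-voom called none of the 10. The 7 genes tested had at least 17 counts in every liver library, so none of them passed the filter through the KO group alone.

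Liver Fos, the AP-1 partner with the largest difference, was at 0.861, 0.988 and 0.893 CPM (scaled within liver) in WT1, WT2 and WT3, and at 5.18, 3.04 and 3.27 CPM in KO1, KO2 and KO3. The WT libraries lay close together and the lowest KO library was over 3 times the highest WT library. The fold change was 4.18 (log2 2.06 ± 0.32 SE, n = 3 a group, adjusted p = 0.123 in edgeR). Without each library in turn the adjusted p ran from 0.0513 to 0.446, and it was 0.000138 in DESeq2.

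Egr1, the zinc finger factor, was at 2.58, 1.92 and 1.03 CPM in the liver WT libraries and at 9.07, 6.51 and 6.64 CPM in the KO libraries. The groups were again apart, and WT3 was the lowest library. The fold change was 4 (log2 2.0 ± 0.34 SE, n = 3 a group, adjusted p = 0.153 in edgeR and 3.09e-05 in DESeq2). Jun, the main partner of Fos in AP-1, was at 13.6, 12.5 and 12.3 CPM in WT libraries and at 27.0, 35.7 and 22.2 CPM in KO. The WT libraries differed by little and KO2 was the highest. The fold change was 2.21 (log2 1.15 ± 0.21 SE, n = 3 a group, adjusted p = 0.205 in edgeR and 0.000808 in DESeq2).

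The stress factor Atf3 and the nuclear receptor Nr4a1 differed less. Liver Atf3 was at 3.66, 2.91 and 2.77 CPM in WT libraries and at 4.78, 5.97 and 4.88 CPM in KO, a log2 difference of 0.74 ± 0.24 (SE, n = 3 a group, edgeR adjusted p = 0.603). Liver Nr4a1 was at 1.89, 0.988 and 1.08 CPM in WT libraries and at 2.27, 2.93 and 2.26 CPM in KO, a log2 difference of 0.9 ± 0.34 (SE, n = 3 a group, edgeR adjusted p = 0.724). Both kept the groups apart, Nr4a1 by a narrow margin since WT1 came close to the KO libraries.

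Junb and Ier2 overlapped between the liver genotypes. Junb, the AP-1 partner that often opposes Jun, was at 11.8 ± 2.49 CPM in WT libraries and 13.5 ± 2.47 CPM in KO (mean ± SD, n = 3, edgeR adjusted p = 0.904). Ier2 was at 12.6 ± 2.27 CPM in WT libraries and 10.9 ± 0.487 CPM in KO (mean ± SD, n = 3, edgeR adjusted p = 0.886). Liver levels of Fosb, Egr2 and Egr3 were under the filter. Fosb had 9, 0 and 1 counts in WT and 3, 5 and 17 in KO, and the WT2 count of 0 allows up to 3 counts. Egr2 had 3 to 6 counts in every liver library and Egr3 1 to 4, the Egr3 WT libraries at 4, 2 and 3 and the KO libraries at 2, 1 and 2.

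**Figure D2:**
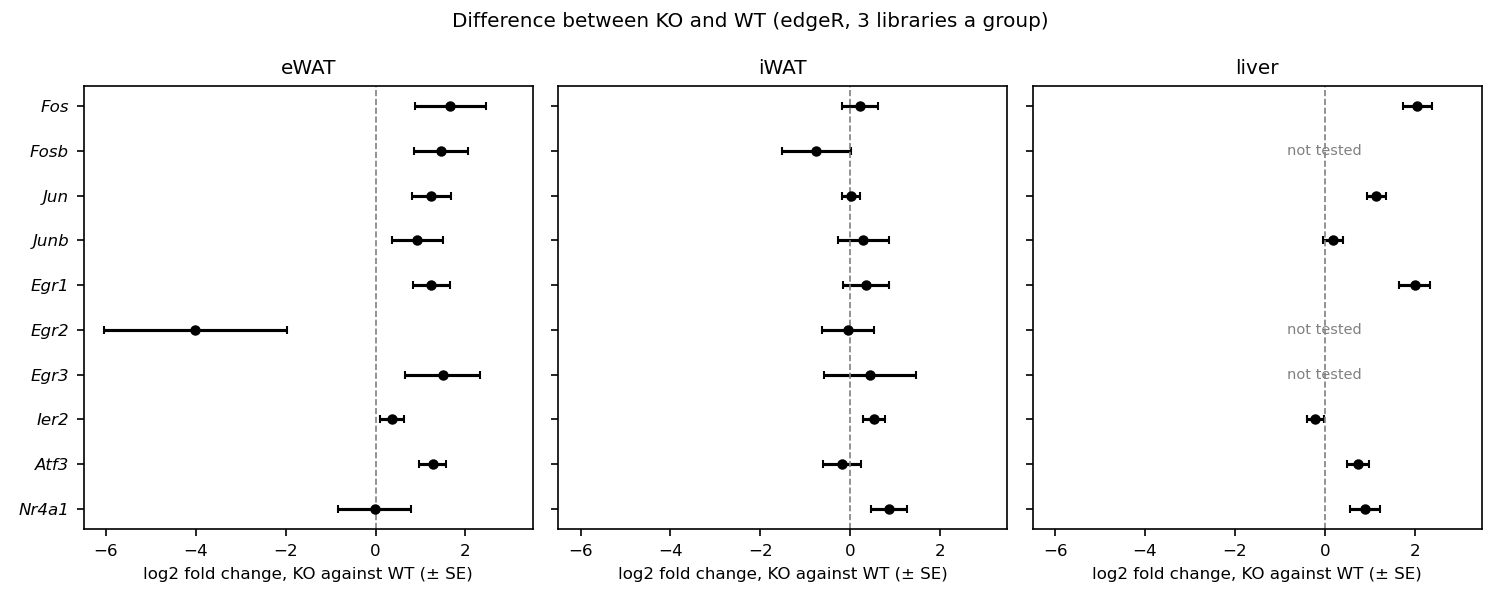
Log2 fold change of KO against WT with its SE for each gene in eWAT, iWAT and liver (edgeR, 3 libraries a group). Fos, Egr1 and Jun stand at 2.06, 2.0 and 1.15 in liver, Egr2 at -4.01 in eWAT with a wide error, and no gene passed an adjusted p of 0.05.

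Of 30 early response genes that are not transcription factors, 24 were tested, 18 had higher and 6 lower values in KO, and none was called. Among all genes tested in liver, 49.7% had higher values in KO. The 4 with the lowest p were Ccn2 and Ccn1 (matricellular proteins), Slc20a1 (a phosphate transporter) and Socs3 (a brake on cytokine signalling). Ccn2 was at 3.33 ± 0.271 CPM in WT libraries and 10.1 ± 1.75 CPM in KO (mean ± SD, n = 3, edgeR adjusted p = 0.0623), and Ccn1 at 3.03 ± 0.553 and 8.15 ± 1.35 CPM (edgeR adjusted p = 0.153). Socs3 was lower in every KO library, with 10.4 ± 1.14 against 5.66 ± 1.39 CPM (edgeR adjusted p = 0.507). The list's median log2 difference was 0.41, against 0.9 for the 7 members tested and 0 for all genes tested.

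Of 23 other early response transcription regulators, 19 were tested, 10 higher and 9 lower in KO, and none was called. Klf10 and Klf6 (Krüppel-like factors) had log2 differences of 0.86 ± 0.23 and 0.7 ± 0.21, while Nfil3 (a circadian repressor) and Myc had -1.1 ± 0.24 and -0.71 ± 0.26 (SE, n = 3 a group). Of 19 brakes on early gene induction, 18 were tested and 13 were higher, with Spry4, Dusp4, Dusp6 and Dusp1 lowest in p and the lowest adjusted p at 0.66. Of 24 upstream kinases and promoter-bound factors, 12 were higher and 12 lower, and none was called. The kinase gene Rps6ka3 and the factor gene Atf1 had log2 differences of 0.68 ± 0.25 and 0.45 ± 0.2, and Mrtfb, whose protein partners SRF, had -0.46 ± 0.21 (SE, n = 3 a group). Srf, which binds the CArG box, was at 9.24 ± 1.7 CPM in WT libraries and 12.3 ± 0.955 CPM in KO (mean ± SD, n = 3, edgeR adjusted p = 0.836).

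Heat shock genes were the list with calls in liver. Of 11, 8 were higher in KO and 2 passed the test, against 49.7% higher and 0.0504% called among all genes tested. Hspa1a rose from 0.706 ± 0.0678 to 6.09 ± 2.12 CPM (mean ± SD, n = 3, log2 3.09 ± 0.34 SE, edgeR adjusted p = 0.0185). Hspa1b rose from 42.7 ± 6 to 179 ± 60.8 CPM (mean ± SD, n = 3, log2 2.07 ± 0.26 SE, edgeR adjusted p = 0.0358). These are near-identical copies, and how reads were shared between them is uncertain. The co-chaperone gene Bag3 was at 54.8 ± 9.65 CPM in WT libraries and 101 ± 20.3 CPM in KO (edgeR adjusted p = 0.433).

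Of 15 marker lists summed in liver, 14 overlapped between genotypes. The exception was erythroid markers, with 2512, 3591 and 2679 CPM in WT libraries and 1008, 2179 and 1270 CPM in KO (6 genes, scaled over 18 libraries). Neutrophil markers were at 80.4, 72.6 and 4.33 CPM in WT libraries and 5.88, 5.75 and 16 CPM in KO, and macrophage markers at 971 to 1280 and 1020 to 1033 CPM. The part of these in the liver differences was not tested.

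In eWAT no gene of the 10 was called. Neither was any of the 14657 genes tested (0%), while DESeq2 called 1 of the 10, Atf3, among 123 genes and limma-voom called none. At an unadjusted p under 0.05, Atf3, Egr1, Jun and Fosb were higher in KO, 4 of 10 against 2.84% of all genes. These 4 and Egr3 had every KO library above every WT library, as did 7.46% of all genes tested. In bulk tissue fewer cells of a type and less RNA a cell cannot be told apart.

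Atf3 in eWAT was at 7.11, 6.14 and 5.46 CPM (scaled within eWAT) in WT and at 11.9, 17.9 and 15.3 CPM in KO. The WT libraries were alike, WT2 included, and the fold change was 2.41 (log2 1.27 ± 0.3 SE, n = 3 a group, edgeR adjusted p = 0.706, DESeq2 adjusted p = 0.00293). Egr1 was at 19.1, 13.4 and 14 CPM in WT libraries and 38.4, 51.9 and 19.1 CPM in KO. KO3 lay barely above WT1 and KO2 was the highest. The log2 difference was 1.24 ± 0.41 (SE, n = 3 a group, edgeR adjusted p = 0.706). Jun was at 58.0, 39.9 and 22.2 CPM in WT libraries and 84.9, 131.5 and 67.2 CPM in KO, with WT3 lowest and KO2 highest (log2 1.24 ± 0.43 SE, n = 3 a group, edgeR adjusted p = 0.706).

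Fos in eWAT spread widely, with 10.4, 1.31 and 4.78 CPM in WT libraries and 22.7, 20.3 and 9.27 CPM in KO. The lowest value was the epididymis-rich library WT2, and WT1 overlapped KO3 (edgeR adjusted p = 0.706). Fosb stayed low, at 1.29, 1.07 and 0.512 CPM in WT libraries and 2.69, 3.51 and 1.77 CPM in KO (log2 1.46 ± 0.6 SE, n = 3 a group, edgeR adjusted p = 0.706). Egr3 was at 1.03, 0.179 and 0.797 CPM in WT libraries and 1.22, 3.19 and 1.28 CPM in KO (log2 1.49 ± 0.83 SE, n = 3 a group, edgeR adjusted p = 0.706). It rested on 3 counts in WT2 and 59 in KO2. Junb, Ier2 and Nr4a1 overlapped, at 8.14 to 56.1, 14.9 to 29.0 and 3.02 to 32.6 CPM over the 6 libraries, with KO2 highest for Junb and Ier2 and WT2 highest for Nr4a1.

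Egr2 in eWAT was set by one library. It was at 1.91 and 1.82 CPM in WT1 and WT3, at 5.32, 6.75 and 6.43 CPM in the KO libraries, and at 294 CPM in WT2. WT2 held 4932 of the gene's 6257 counts over the 18 libraries. The fitted log2 difference of KO against WT was -4.01 ± 2.04 (SE, n = 3 a group, edgeR adjusted p = 0.706), and without WT2 it was 1.75 (edgeR adjusted p = 0.235). Epididymis markers in WT2 summed to 47814 CPM (scaled over all 18 libraries), with Gpx5 at 30807 and Adam7 at 6335 CPM, and smooth muscle markers to 1291 CPM, a list that reached 2734 and 2654 CPM in KO1 and KO3. In KO1 and KO3, with Crisp1 at 1071 and 1238 CPM but Gpx5 at 9.04 and 14.1 CPM, Egr2 was at 4.04 and 4.55 CPM on the same scale. The part of the epididymal RNA in the Egr2 level was not tested. On the within-eWAT scale, WT2 was also the lowest eWAT library for Fos and Egr3. It was the lowest for Egr1 too, by a narrow margin (13.4 CPM, against 14 CPM in WT3).

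Without the 3 eWAT libraries above 100 CPM of Crisp1, WT1 and WT3 were set against KO2 alone, which is then assumed to vary like the WT libraries. The spread of KO libraries is not measured in that fit, so its calls are not given. Its log2 difference of KO against WT for Egr2 was 1.85.

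The other early response lists in eWAT had higher values in KO for most of their genes, with no call. Among all genes tested in eWAT, 48.5% had higher values in KO. Of 30 early response genes that are not transcription factors, 28 were tested and 23 were higher, with a median log2 difference of 0.65 against -0.02 for all genes. The prostaglandin synthase Ptgs2 was at 2.95 ± 1.76 CPM in WT libraries and 819 ± 730 CPM in KO, the matrix protein gene Thbs1 at 34.9 ± 6.54 and 485 ± 640 CPM, and the stress sensor gene Gadd45b at 6.2 ± 1.49 and 18.1 ± 2.66 CPM (mean ± SD, n = 3, each edgeR adjusted p = 0.706). Rgs1, a brake on G protein signalling, was at 0.953 ± 0.412 and 3.21 ± 0.416 CPM. Of 23 other transcription regulators, 21 were tested and 17 were higher, Csrnp1, Klf6 and Myc with log2 differences of 0.97 ± 0.25, 0.87 ± 0.31 and 1.4 ± 0.52, and Bhlhe40 among the 4 lower at -0.9 ± 0.35 (SE, n = 3 a group). Of 19 brakes 18 were higher, led by Zfp36, which degrades early transcripts, at 33.5 ± 9.72 CPM in WT libraries and 74.5 ± 25.1 CPM in KO. Heat shock genes split 6 higher and 5 lower, and upstream kinases and factors 15 higher and 9 lower. T cell markers were higher in every KO library, at 6.31 to 7.89 CPM in WT libraries and 8.38 to 13.3 CPM in KO, and their part in these values was not tested. The other 14 marker lists overlapped between genotypes, but libraries of a genotype differed. Smooth muscle markers were at 2734, 168 and 2654 CPM in KO1, KO2 and KO3, and epididymis markers at 1092, 17.2 and 1262 CPM. Adipocyte markers were at 204 CPM in WT2 (all scaled over 18 libraries). The part of these in the eWAT values was not tested.

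In iWAT no gene of the 10 was called by edgeR, DESeq2 or limma-voom, and none had an unadjusted p under 0.05, against 1.37% of all genes that did so with higher values in KO. None of the 14226 genes tested was called by edgeR (0%). Nr4a1 was the only member with the groups apart, at 14.7, 5.26 and 12.7 CPM (scaled within iWAT) in WT and 16.4, 20.3 and 22.3 CPM in KO, an arrangement that 4.34% of all genes showed. Its edgeR adjusted p was 1. Fos was at 8.01 ± 3.02 CPM in WT libraries and 9.31 ± 3.6 CPM in KO, Jun at 47.6 ± 10.8 and 48.3 ± 4.79 CPM, and Atf3 at 9.94 ± 4.7 and 8.77 ± 1.65 CPM (mean ± SD, n = 3). Ier2 was at 18.4 ± 4.7 CPM in WT libraries and 26.5 ± 4.37 CPM in KO, and Fosb at 1.92 ± 1.89 and 1.14 ± 0.153 CPM, with WT3 alone at 4.06 CPM. For these the spread within a genotype was as large as the difference or larger, except for Ier2, whose groups still overlapped.

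Within iWAT the EGR genes and Junb varied between libraries far more than between genotypes. Egr3 was at 28.5, 1.31 and 13.3 CPM in WT libraries and at 6.44, 29.8 and 22.2 CPM in KO. WT2 was lowest in a range of over 20 times, and the libraries of both genotypes interleaved. Summed B cell markers were lowest in WT2 too, at 5.82 CPM (8 genes, scaled over 18 libraries), then 368 in KO1, 594 in WT3, 1217 in KO3, 1313 in KO2 and 1415 in WT1. T cell markers ran from 10.1 CPM in WT2 and 188 CPM in KO1 to 691 CPM in KO2. The order of Egr3 over the 6 libraries matched the order of B cell markers except that KO2 and WT1 changed places, and WT2 also stood apart in skeletal muscle markers, at 415 CPM against 2.22 to 29 CPM. Junb was at 54.9, 12.9 and 32.8 CPM in WT libraries and 22.2, 46.0 and 54.5 CPM in KO, and Egr1 at 30.5, 7.8 and 19.3 CPM in WT libraries and 17.3, 22.6 and 33.4 CPM in KO. Both were lowest in WT2, as were Ier2, Nr4a1 and Fosb, at 13.4, 5.26 and 0.493 CPM. Jun, by contrast, was highest in WT2, at 59.7 CPM. Atf3 was at 12.1 CPM in WT2, in a range of 4.56 to 13.2 CPM over the 6 libraries, and Fos at 6.78 CPM in a range of 5.35 to 12.4 CPM. Egr2 was lowest in KO1, at 2.66 CPM, with WT2 next at 3.78 CPM and the other 4 libraries between 6.42 and 10.2 CPM. KO1 and WT2 were also the deepest iWAT libraries, at 28039742 and 27462097 expected counts. The epididymal gene Gpx5 was at 0.128 CPM in KO1, 0.0905 CPM in WT2 and 13.3 to 23.7 CPM in the other 4 libraries (scaled over 18 libraries). The part of lymphoid cells, depth or epididymal reads in these levels was not tested.

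**Figure D3:**
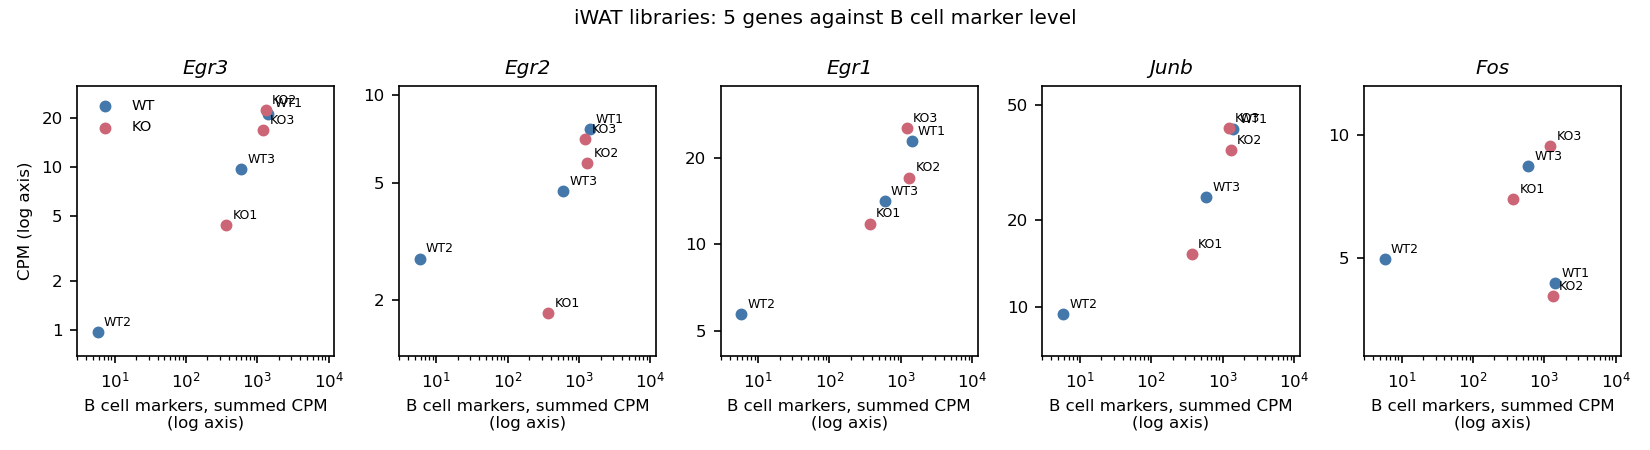
Level of 5 genes in the 6 iWAT libraries (CPM, log axis) against the summed level of 8 B cell markers (CPM, log axis, both scaled over all 18 libraries), with 1 point a library. Egr3 goes from 0.965 CPM in WT2 to 22.5 CPM in KO2 as the marker sum goes from 5.82 to 1313 CPM, while Fos is as low in WT1 and KO2 as in WT2.

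In iWAT the macrophage markers were lower in every KO library (1346 to 1957 CPM, against 2590 to 3034 CPM in WT), as were fibroblast and mast cell markers. Spermatid markers were higher in every KO library, at 0 to 0.117 CPM in WT libraries and 26.6, 0.334 and 0.402 CPM in KO1, KO2 and KO3. None of these 6 genes passed the filter in iWAT, so only KO1 was clearly above the floor. The part of these in the iWAT values was not tested. Among all genes tested in iWAT, 52% had higher values in KO. Early response genes that are not transcription factors were higher for 16 and lower for 12 of 28 tested, with a median log2 difference of 0.07. The 21 other transcription regulators tested had 12 higher, led by Klf2, an endothelial and lymphocyte factor, at 61.3 ± 13.4 CPM in WT libraries and 112 ± 9.95 CPM in KO (mean ± SD, n = 3, edgeR adjusted p = 1). Of 11 heat shock genes 10 were higher, and the co-chaperone gene Dnajb1 was at 58.1 ± 5.12 CPM in WT libraries and 121 ± 24.4 CPM in KO (mean ± SD, n = 3, edgeR adjusted p = 1). Of 19 brakes 15 were higher, led by Dusp10, a MAP kinase phosphatase, at 19.1 ± 1.32 and 35.7 ± 8.96 CPM.

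Whether the genotype difference itself varied between tissues was tested as an interaction. No gene of the 10 was called in iWAT minus eWAT, liver minus eWAT or liver minus iWAT, nor was any of the 15455, 14984 and 14673 genes tested (0% in each), and DESeq2 and limma-voom called none of the 10. At an unadjusted p under 0.05 there were 2, 0 and 4 of the 10, against 4.78%, 5.3% and 4.8% of all genes tested. The liver difference exceeded the iWAT difference by log2 1.85 ± 0.54 for Fos and 1.12 ± 0.29 for Jun (SE, edgeR adjusted p = 0.843 and 0.752). For Egr1 it was 1.64 ± 0.68, and for Ier2 it was lower by -0.75 ± 0.33 (SE, edgeR adjusted p = 0.973 for both). Between iWAT and eWAT, Jun and Atf3 differed by -1.26 ± 0.49 and -1.49 ± 0.53 (SE, edgeR adjusted p = 0.969 for both). The larger liver values are therefore not shown to differ from those in fat.

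Levels between genes were compared per length, in the deposited FPKM. In liver the order was Ier2, Junb, Jun, Atf3, Egr1, Fos, Nr4a1, Fosb, Egr2 and Egr3. Ier2 was at 7.64 ± 0.55 FPKM, Junb at 6.99 ± 1.37, Jun at 6.52 ± 3.15 and Atf3 at 2.12 ± 0.708 FPKM (mean ± SD over 6 libraries of both genotypes). The first 3 overlapped in range, and all 3 lay above the other 7 in every library. Egr1 was at 1.41 ± 0.983 and Fos at 1.15 ± 0.892 FPKM, while Fosb, Egr2 and Egr3 had means of 0.142, 0.0817 and 0.035 FPKM.

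In iWAT Junb, Ier2 and Jun led, at 21.2 ± 10.9, 15 ± 5.1 and 15 ± 1.57 FPKM, and their ranges overlapped. Jun did not overlap with Egr1, the next gene, at 6.72 ± 3.07 FPKM. Nr4a1, Egr3, Atf3 and Fos followed between 6.31 and 4.1 FPKM with overlapping ranges, then Egr2 at 2.44 ± 1.28 and Fosb at 0.488 ± 0.312 FPKM. In eWAT Jun led with 22.2 ± 13.7 FPKM. Egr2 was next by its mean of 21.4 ± 47.5 FPKM, which rests on WT2 at 118 FPKM, and it was above Junb in that library only. Junb, Ier2, Egr1, Nr4a1, Fos and Atf3 ran from 16 ± 9.76 to 5.62 ± 3.13 FPKM with each neighbour overlapping. Fosb and Egr3, at 0.573 ± 0.354 and 0.367 ± 0.323 FPKM, lay below the other 8 genes in every library, and overlapped each other.

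**Figure D4:**
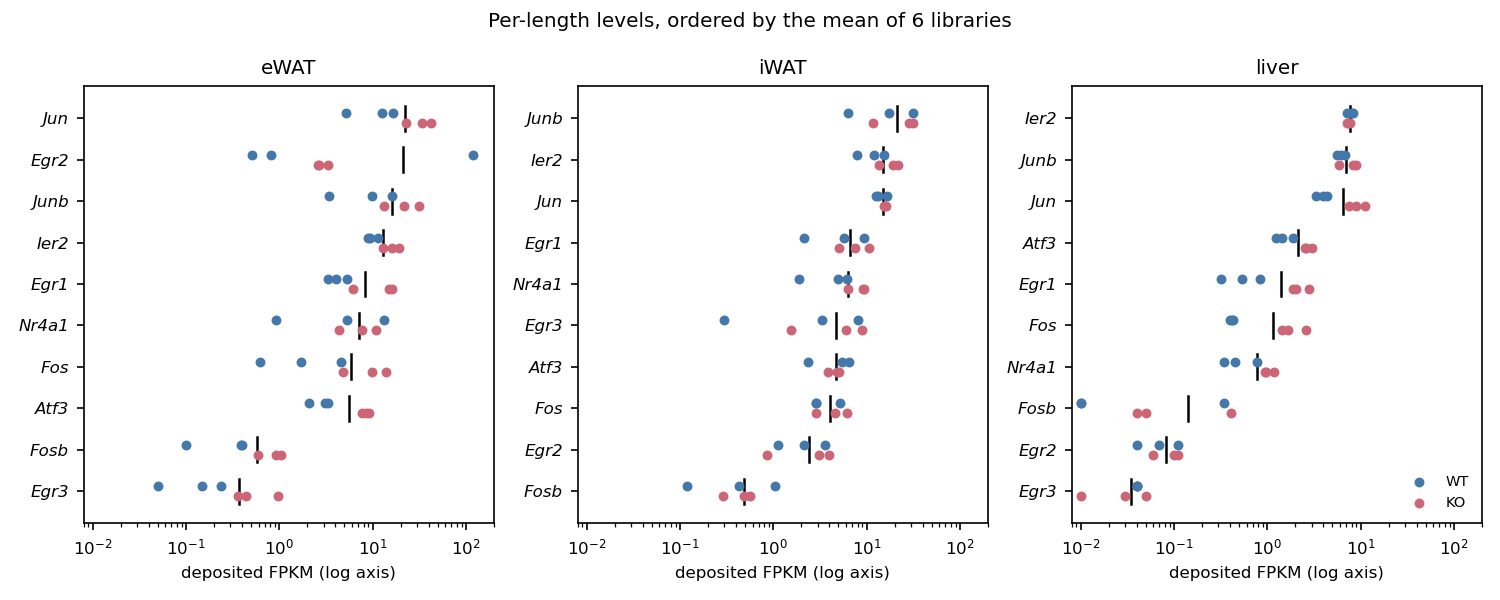
Deposited FPKM (log axis) of the 10 genes in each tissue, ordered by the mean of 6 libraries (black line), with 1 point a library, WT in blue and KO in red. Values of 0 are drawn at 0.01. Ier2, Junb and Jun lead in liver and iWAT, and the Egr2 mean in eWAT lies far from 5 of its 6 points.

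Between tissues the 3 comparisons share libraries, so they are given side by side. Counts were compared with 6 libraries a tissue, genotype in the model. Differences that involve liver depend on the scaling. The median over all genes was -0.29 (log2, liver against eWAT) and -0.34 (liver against iWAT) with TMM scaling, and -0.96 and -1.02 on log2(FPKM + 1). On that second scale all 10 genes were called lower in liver in both comparisons, so directions below are those of TMM scaling and the values are best read relative to the all-gene median.

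Liver was lower for Egr1 and Nr4a1, and Egr2 and Egr3 had few counts there. Against eWAT, 4 of the 10 were called lower and 1 higher, and against iWAT 5 lower and 1 higher. Of all genes tested, 40.6% were called lower and 29.7% higher against eWAT, and 45.8% lower and 31.7% higher against iWAT. Egr2 and Egr3 are among the lower calls in both comparisons and passed the filter on low counts through the fat libraries alone, so a difference had to follow for them and the counts of lower calls support nothing. Nr4a1 ran from 1.81 to 5.39 CPM (median 3.88) in liver, from 2.17 to 22.9 CPM (median 11.4) in eWAT and from 3.86 to 16.9 CPM (median 11.1) in iWAT (scaled over all 18 libraries). Its log2 difference was -1.76 ± 0.48 against eWAT and -1.64 ± 0.28 against iWAT (SE, edgeR adjusted p = 0.00744 and 0.000237). Egr1 ran from 1.99 to 17.5 CPM in liver, 9.37 to 37.3 CPM in eWAT and 5.73 to 25.3 CPM in iWAT, with log2 differences of -1.25 ± 0.29 and -1.18 ± 0.34 (SE, edgeR adjusted p = 0.00327 and 0.00791). The tissues overlapped, and in KO libraries alone the differences were -0.94 and -0.28 (edgeR adjusted p = 0.0602 and 0.423).

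Egr2 and Egr3 had 3 to 6 and 1 to 4 counts in a liver library, so their fitted differences rest on a group near no counts and are given as a description. Egr2 was at 0.213 to 0.64 CPM in liver and 1.81 to 7.64 CPM in iWAT, a log2 difference of -3.51 ± 0.47 (SE, edgeR adjusted p = 3.68e-05). Against eWAT it was -5.35 ± 1.28 (SE, edgeR adjusted p = 0.0038), and without eWAT WT2 it was -2.45. Egr3 was at 0.0709 to 0.329 CPM in liver, 0.126 to 2.29 CPM in eWAT and 0.965 to 22.5 CPM in iWAT. Its liver levels lay below every iWAT library (log2 -5.91 ± 0.79 SE, edgeR adjusted p = 3.77e-05) and overlapped those of eWAT through WT2 alone (log2 -1.95 ± 0.56 SE, edgeR adjusted p = 0.0106).

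Fos was called lower in liver than in iWAT (log2 -0.82 ± 0.27 SE, edgeR adjusted p = 0.0154), with 1.65 to 9.96 CPM in liver and 4.04 to 9.4 CPM in iWAT. Within KO libraries alone the difference was 0.17 (edgeR adjusted p = 0.707), and the liver library KO1 was the highest of these 12. Against eWAT, where Fos ran from 0.92 to 17.2 CPM, it was not called (edgeR adjusted p = 0.073). It was called lower under 9 of 25 alternatives, among them DESeq2 (adjusted p = 0.0434), upper quartile scaling (0.0236), all 18 libraries in 1 fit (0.0415) and the fit without eWAT WT2 (0.00606). Ier2 was called higher in liver with TMM scaling (log2 0.7 ± 0.16 SE against eWAT and 0.45 ± 0.17 SE against iWAT, edgeR adjusted p = 0.00337 and 0.0267) and lower on log2(FPKM + 1), by -0.65 and -0.82. In KO libraries alone its differences were 0.34 and 0.15 (edgeR adjusted p = 0.167 and 0.53), and with upper quartile scaling the difference against iWAT was 0.25 (adjusted p = 0.168). The call against iWAT also ended without iWAT KO1, liver WT2 or liver KO1, at adjusted p of 0.0567, 0.059 and 0.0558. Jun, Junb, Atf3 and Fosb were not called in either comparison, with liver medians of 33.3, 23.4, 7.96 and 0.32 CPM.

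Between the fat depots, Egr3 alone was called. It ran from 0.126 to 2.29 CPM in eWAT and from 0.965 to 22.5 CPM in iWAT, a fold of 14.4 (log2 3.85 ± 0.76 SE, edgeR adjusted p = 0.0161), and it was higher in 5 of 6 iWAT libraries than in every eWAT library. The exception was iWAT WT2, the library with 5.82 CPM of B cell markers. B cell markers summed to 2.43 to 8.75 CPM in eWAT. Of 15455 genes tested, 9.12% were called higher and 8.3% lower in iWAT. Egr3 was no longer called without eWAT KO1 or KO3 (adjusted p = 0.0502 and 0.0535), without both of these and WT2 (0.171), or in WT libraries alone (0.304), with log2 differences of 3.24 to 4.43. Among genes of other lists, Dusp2, a phosphatase of immune cells, rose by 4.45 ± 0.76 and Klf2 by 1.66 ± 0.31 in iWAT (log2 ± SE, edgeR adjusted p = 0.013 and 0.0152). Ccn2, Ier3 and Ptgs2 were lower in iWAT, by log2 differences of -2.4 ± 0.33, -1.18 ± 0.24 and -4.54 ± 0.95 (SE, edgeR adjusted p = 0.0118, 0.017 and 0.0183). Ptgs2 in eWAT was at 2.95 ± 1.76 CPM in WT libraries and 819 ± 730 CPM in KO (mean ± SD, scaled within eWAT), so its depot difference rests largely on the eWAT KO libraries. Its genotype effect in iWAT minus eWAT was -8.23 ± 1.86 (log2 ± SE, edgeR adjusted p = 0.969). The other 9 of the 10 genes overlapped between the depots and were not called, with adjusted p from 0.219 to 0.863.

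The 10 genes did not vary as a block. Each library was expressed as a deviation from the mean log2 CPM of its tissue, which leaves the shared tissue levels out. Junb and Egr1 followed the mean of the other 9 most closely over the 18 libraries (Pearson r = 0.83 and 0.8), and Egr2 did not (r = -0.01). Egr2 deviated by 5.14 in eWAT WT2, a value that weighs on its r and enters the mean used for the other genes. The r without that library was not computed. Egr3, Fos and Atf3 had r of 0.38, 0.42 and 0.42. The points share library depth and tissue composition, and r is a description with no test. The mean of the 10 was lowest in eWAT WT3, at -1.1, and in iWAT WT2, at -0.91, and highest in eWAT KO2, at 0.85. In liver it was below 0 in the 3 WT libraries and above 0 in the 3 KO libraries. Among 10073 other genes present in all 3 tissues, the 5 most like the mean of the 10 were Zswim6, Srf and Nup133 (r = 0.87 each) and Mfsd10 and Hivep1 (r = 0.85 each).

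**Figure D5:**
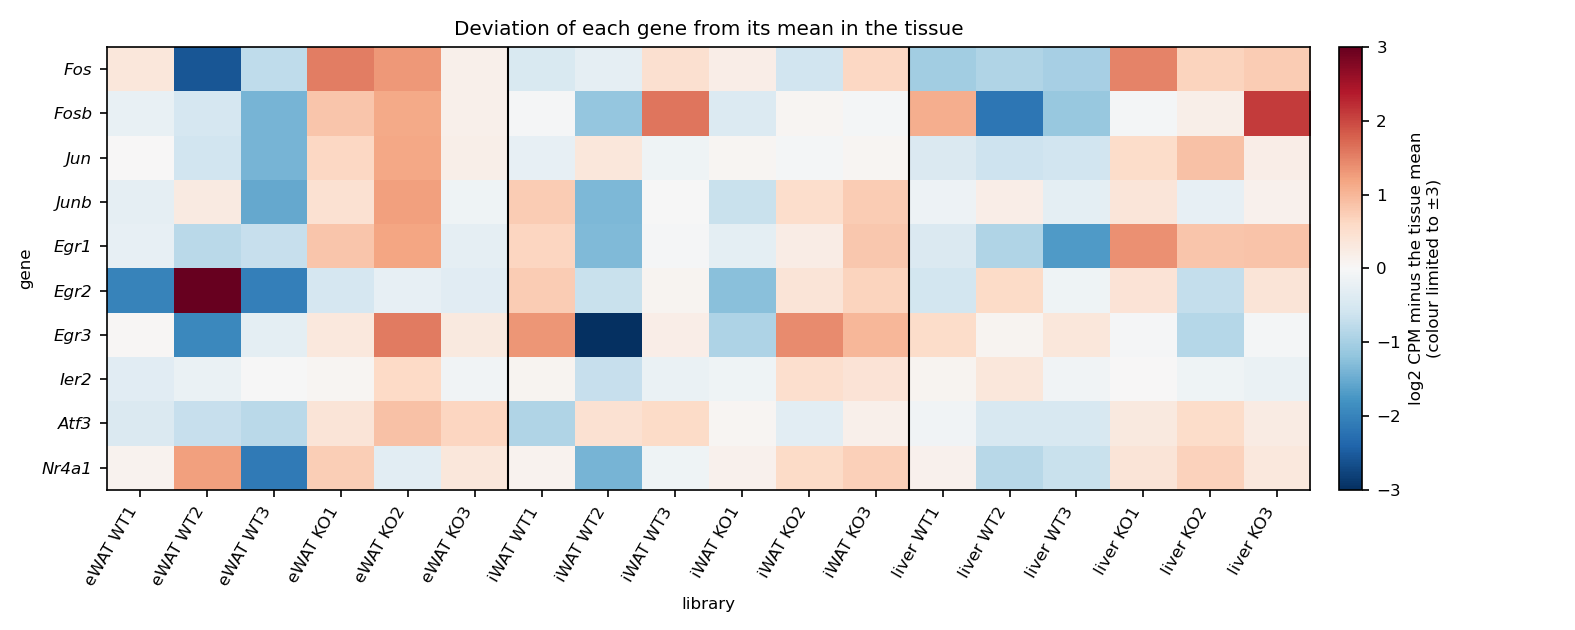
Log2 CPM of each gene minus its mean in the tissue, for 18 libraries in 3 blocks (red above, blue below, colour limited to ±3). In liver the 3 WT libraries are below the mean for Fos, Jun and Egr1, and the strongest single cells are Egr2 in eWAT WT2 and Egr3 in iWAT WT2.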

How the data were processed

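RNA was taken from 18 tissue samples, enriched with oligo(dT) and sequenced on a NovaSeq, per the labels' protocols. Per the submitters' processing notes, reads were handled on mm10 with tools that include HISAT2, RSEM, fastp 0.18.0, StringTie 1.3.1, edgeR, DESeq2 and Bowtie2 2.2.8, in no stated order. The authors deposited expected counts, estimates that need not be whole (8.57% of values were not, by at least 0.005), and FPKM values, scaled by length and depth. Neither counting of strand nor annotation release is given in the sources used here.

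Symbols came from GENCODE M21 (22255 of 22298 identifiers matched). Expected counts were rounded, filtered (filterByExpr, minimum count 10, total 15), TMM-scaled and tested with edgeR 4.0.16 (robust quasi-likelihood) in R 4.3.3, with Benjamini-Hochberg adjustment over all genes and a threshold of 0.05. Genotype was tested within the 6 libraries of a tissue, tissues and interactions over 12 libraries. The SE of a log2 fold change is its size over the root of F. DESeq2 1.42.0, limma 3.58.1, other scalings, no filter, FPKM on log2 with a pseudocount of 1 or 0.1, a replicate block, a fit of all 18 libraries and left-out libraries were alternatives. The fits were tested on simulated data. No 2 libraries of a group held identical values. Libraries with the same number did not deviate together.

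The members, gene lists and tests were chosen with earlier results of these data known. All 10 members are named. Of each pathway list, up to 4 genes are named in order of unadjusted p in the comparison. Marker lists are given as summed CPM. The genes most like the members are the 5 with the highest r among genes whose log2 CPM (prior count 2) averaged 1 or more in each tissue. Promoter letters are from RefSeq.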

Additional observations from a re-analysis of the deposited data

Results flagged for a closer look

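Egr3 had every KO library above every WT library in eWAT and every KO library below every WT library in liver, which is what put it here. The eWAT difference was log2 1.49 ± 0.83 (SE, n = 3 a group, edgeR adjusted p = 0.706). In liver the levels were 0.172, 0.116 and 0.141 CPM in WT and 0.0986, 0.0385 and 0.101 CPM in KO, from 1 to 4 counts a library, which is under the filter. The difference between the 2 genotype effects was -2.33 ± 1.13 (liver minus eWAT, SE, edgeR adjusted p = 0.866). This fit uses the same values, and Egr3 entered it through the eWAT libraries alone.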

How the results depend on the processing

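Liver calls among the 10 genes depended on the tool: 0 in the fit reported, 2 with no filter on low counts (Fos and Egr1), 3 with DESeq2 and 3 with a replicate block, while eWAT went from 0 to 1 with DESeq2. No call in iWAT or in an interaction changed under any alternative run. The replicate block takes library numbers as pairs, WT with KO in a genotype fit and tissue with tissue in the others. In deviations of log2 CPM from group means, same-numbered WT and KO libraries correlated at -0.63 to 0.12 over all tissues. For liver alone, r was 0.081, 0.051 and -0.151. Same-numbered libraries of a genotype correlated at -0.21 to 0.23 between tissues. The labels do not say what a shared number means, so whether the numbers mark pairs is not settled. Not every library correlated best with its own number. Beside the 3 liver calls, the block ended the call of Ier2 in liver against iWAT (adjusted p = 0.057) and moved no count of members in another comparison by more than 1.5 times. Between iWAT and eWAT the count went from 1 to 0 with limma-voom, log2(FPKM + 1) with and without the filter, without the Crisp1-rich libraries and in WT libraries alone, and ranged from 0 to 1 with 1 library left out, when the total called fell to 576 without eWAT KO1 and 16 without eWAT KO3. Liver against eWAT went from 5 to 3 with limma-voom, WT alone or KO alone, to 10 on log2(FPKM + 1) and log2(FPKM + 0.1), and to 9 on log2(FPKM + 1) with no filter. Liver against iWAT went from 6 to 10 on all 3 FPKM settings. With TPM in place of FPKM, 6 of 10 genes kept their place in iWAT.

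Values that changed sign were Egr2 in eWAT, 0.054 with the replicate block, 1.85 without the Crisp1-rich libraries and -4.58 to 1.75 with 1 library left out; Ier2 in liver against eWAT, -0.65 on log2(FPKM + 1) with and without the filter and -0.71 on log2(FPKM + 0.1); Ier2 in liver against iWAT, -0.82 on the former and -0.89 on the latter; and Fos in liver against iWAT, 0.17 in KO libraries alone. The cause was not tested. Leaving out the iWAT libraries under 10 CPM of Cd79a in the tissue and interaction comparisons was chosen after seeing the data and moved no count of members. Of a further 34 fold changes of members, none past its threshold in the fit reported, 22 changed sign under an alternative. With the sign kept, 7 passed the threshold under at least 1. These were Fos, Fosb and Jun lower in liver against eWAT, Fosb and Junb lower in liver against iWAT, and Jun and Atf3 higher in liver against iWAT in KO libraries alone (adjusted p = 0.0174 and 0.0311). Fosb was under the filter in liver and passed it here through the fat libraries alone, so its lower results support nothing. With the sign changed, Junb and Atf3 passed as lower in liver against eWAT on log2(FPKM + 1) (limma adjusted p = 0.0286 and 4.83e-05). On that scale Jun and Atf3 also passed as lower in liver against iWAT (limma adjusted p = 2.36e-06 and 0.000996). At 0 to 17 counts a library, liver Fosb, Egr2 and Egr3 are limited by depth.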
